A study of Mus musculus with 57 samples.

Results

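The 10 genes described here are the transforming growth factor-β (TGF-β) ligands *Tgfb1*, *Tgfb2* and *Tgfb3*, their receptors *Tgfbr1*, *Tgfbr2* and *Tgfbr3*, the latency protein gene *Ltbp1*, the activin and inhibin subunits *Inhba* and *Inhbb*, and the matrix gene *Postn*. They were taken by symbol from the count tables of mouse heart RNA, which hold 25416 genes in an acute study and 54658 genes in a chronic study of doxorubicin (Doxo). Doxo is an anthracycline used against tumours and limited by its toxicity to the heart, and nicotinamide mononucleotide (NMN) is a precursor of NAD+. All 10 genes had enough reads to be tested in both studies, among 14240 tested genes of the acute and 14960 of the chronic data.

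All mice were male, wild-type for genotype and of the C57BL6/J strain. In the acute study, 14 Ctrl mice received saline, 13 Doxo mice received 1 intraperitoneal injection of 20 mg/kg Doxo, and 13 Doxo-NMN mice received the same injection with 180 mg/kg/day NMN given intraperitoneally from 5 days before Doxo. Acute mice were bought at 9 weeks of age, and hearts were taken 5 days after Doxo and 2 h after the last NMN dose. In the chronic study, 5 Ctrl mice received PBS, 6 Doxo mice received 5 injections of 4 mg/kg Doxo, and 6 Doxo-NMN mice received these injections together with NMN added to the drinking water (500 mg/kg/day) from 5 days before the first injection. Chronic mice were 14 to 16 weeks old at the first injection, and hearts were taken 60 days after it. The cumulative Doxo dose was 20 mg/kg in both studies. No group received NMN without Doxo. The hearts of every group come from mice that were alive at collection, on day 5 in the acute study. The paper reports lower survival in Doxo than in Doxo-NMN mice, a difference significant in the acute but not in the chronic study. Age, supplier, route of NMN, time of collection and sequencing site all differ between the studies and cannot be told apart.

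TGF-β is secreted in a latent form that is bound to latent TGF-β binding proteins in the extracellular matrix, and it signals only after release from this complex. The free ligand binds the type II receptor, which then phosphorylates the type I receptor, and the type I receptor phosphorylates the transcription factors Smad2 and Smad3. In the heart the pathway is best known for driving fibroblasts to produce collagen and other matrix after injury. Activins are related dimers of inhibin β subunits that use their own receptors and the same Smads, and periostin is a matrix protein of fibroblasts that TGF-β can induce.

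Each acute heart had a total of 32409622 to 52102850 counts and each chronic heart 17769886 to 23862287. Levels are given as CPM, the counts of a gene relative to the TMM-scaled library size, and 3 counts correspond to 0.0576 to 0.0926 CPM in the acute libraries and to 0.126 to 0.169 CPM in the chronic ones. The lowest value of any of the 10 genes in any heart was 20 counts, for *Inhba* in the chronic Ctrl and Doxo groups. A gene was called at a Benjamini-Hochberg adjusted p under 0.05 by the quasi-likelihood test of edgeR. For acute hearts a fold of 1.5 or more was required too. The hearts carried transcripts of their usual cell types, with all 7 cardiomyocyte, all 8 fibroblast and all 6 endothelial markers detected in every group. 1 library stood apart: the heart labelled acute Doxo replicate 6 lay at 0.0277 on a scale over all tested genes on which Ctrl is 0 and Doxo is 1. The Ctrl hearts lay between −0.0401 and 0.0931 on this scale and the other 12 Doxo hearts between 0.41 and 1.46. Its summed red blood cell markers were 262 CPM, against at most 3.2 CPM in each other Doxo heart and at least 339 CPM in each Ctrl heart. Acute fold changes of the called genes among the 10 are therefore given with and without this heart.

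The acute hearts also fell into a set with at least 100 CPM of *Myl4*, an atrial myosin light chain, and a set below, with 8 and 6 hearts in Ctrl, 5 and 8 in Doxo, and 4 and 9 in Doxo-NMN. The set below includes Doxo replicate 13, at 93.1 CPM of *Myl4*, where the other Doxo hearts of that set had at most 8.36 CPM. Doxo replicate 6 is also in the set below. The summed level of the 4 atrial markers had a median of 2451 CPM in the Ctrl group, 54.3 CPM in the Doxo group and 59.2 CPM in the Doxo-NMN group, so that a larger share of the Ctrl hearts carried atrial transcripts (8 of 14, against 5 of 13 and 4 of 13). The summed fibroblast markers had medians of 2601, 1439 and 1816 CPM in the same order, and they differed between the *Myl4* sets. In the set below 100 CPM they ran from 1510 to 1909 CPM in Ctrl, 1091 to 1571 CPM in Doxo and 1077 to 1886 CPM in Doxo-NMN hearts. In the other set they ran from 2591 to 3074, 2010 to 3188 and 1816 to 2844 CPM. Over all hearts, in Doxo vs. Ctrl 5 of the 8 markers were called lower and 0 higher. *Pdgfra*, *Tcf21* and *Dcn* were not called, at log2 fold changes of −0.05, 0.18 and 0.50. In Doxo-NMN vs. Doxo 4 of the 8 were called higher and 2 lower, *Tcf21* (−0.85) and *Dcn* (−0.62), so the markers did not move together. The 3 neutrophil markers tested (*S100a8*, *S100a9* and *Retnlg*) were called higher in Doxo vs. Ctrl, with a median log2 fold change of 4.48, and lower in Doxo-NMN vs. Doxo, with a median of −1.63. Their sum with *Ly6g*, which had 0 counts in each Ctrl heart, ran from 0.57 to 3.88 CPM in Ctrl, from 1.40 to 255 CPM in Doxo and from 2.85 to 26.8 CPM in Doxo-NMN hearts. All 3 red blood cell markers were called lower in Doxo vs. Ctrl, as were 2 of 6 macrophage markers. The part of these markers in the changes below was not tested. A lower level in whole heart RNA can come from fewer cells of a type, from less RNA per cell or from less atrial tissue in the sample. These cannot be told apart here.

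Positions are on GRCm38, the assembly that mm10 corresponds to. *Tgfb2*, the gene called in both studies, lies at chr1:186622792-186705989 on the minus strand. The other 5 genes called in the acute study lie at chr1:119415465-119422248 (*Inhbb*), chr9:116084293-116175360 (*Tgfbr2*) and chr12:86056745-86079041 (*Tgfb3*) on the minus strand, and at chr17:75005568-75392512 (*Ltbp1*) and chr3:54361109-54391037 (*Postn*) on the plus strand. An antisense gene, Gm29491, overlaps 124 exonic bases of *Tgfb2* or 2.14% of its exon length, and the strand setting of the counting was not given in the sources used here, so reads of the pair cannot be separated in this stretch. *Tgfb3* shares 7.6% of its exon length with Gm48008 and 4.82% with Gm37804 on the opposite strand, and *Tgfbr3* shares 4.54% with Gm43422. The remaining 7 genes overlap no annotated exon of another gene.

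Promoter sequences are shown for *Tgfb2* and *Tgfb1* because these ligands had fold changes of opposite sign in Doxo vs. Ctrl. Both are the 250 bases before the annotated start site in RefSeq on GRCm38.p6, written 5′ to 3′ on the strand of the gene. *Tgfb2* is at chr1:186705990-186706239 on the minus strand and *Tgfb1* at chr7:25686752-25687001 on the plus strand. Capitals mark exact matches, on either strand, to TATAAA, to the Smad box CAGACA and to the GC box GGGCGG.
Tgfb2: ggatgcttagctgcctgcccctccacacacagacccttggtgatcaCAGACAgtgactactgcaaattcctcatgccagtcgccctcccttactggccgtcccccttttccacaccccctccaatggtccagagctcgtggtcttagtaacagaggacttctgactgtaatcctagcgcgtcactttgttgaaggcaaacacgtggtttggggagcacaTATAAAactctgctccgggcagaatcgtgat
Tgfb1: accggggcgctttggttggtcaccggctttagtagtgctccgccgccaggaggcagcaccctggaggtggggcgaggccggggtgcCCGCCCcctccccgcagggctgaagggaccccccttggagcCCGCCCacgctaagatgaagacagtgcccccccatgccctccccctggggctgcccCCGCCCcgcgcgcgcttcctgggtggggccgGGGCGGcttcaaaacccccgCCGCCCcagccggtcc
The *Tgfb2* stretch holds TATAAA at −31 to −26 and CAGACA at −204 to −199 from the start site, no GC box, and 53.6% G and C. The *Tgfb1* stretch has no TATAAA or CAGACA, 75.2% G and C, and 5 GC boxes, with a 6th at 12 to 17 after the start. Of 32851 RefSeq mouse promoters of the same kind (250 bases before to 50 after the start), 13.6% hold TATAAA, 21% hold CAGACA and 35.7% hold GGGCGG. RefSeq promoters were matched for 8 of the 10 genes. These matches are letters in a window and say nothing of which factors bind there.

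In acute Doxo vs. Ctrl, 6 of the 10 genes passed both limits. *Inhbb*, *Tgfbr2* and *Tgfb2* rose, and *Postn*, *Ltbp1* and *Tgfb3* fell. Of all tested genes 14.7% were called higher and 15.4% lower, and 68.1% passed the adjusted p limit alone, as did 9 of the 10 genes. The median log2 fold change of the 10 genes was −0.00 and that of all tested genes −0.00. *Tgfb1*, *Tgfbr1* and *Tgfbr3* passed the p limit but not the fold limit, and *Inhba* passed neither. Without Doxo replicate 6, 7 genes were called, with *Tgfbr3* added at a log2 fold change of 0.63.

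**Figure D1:**
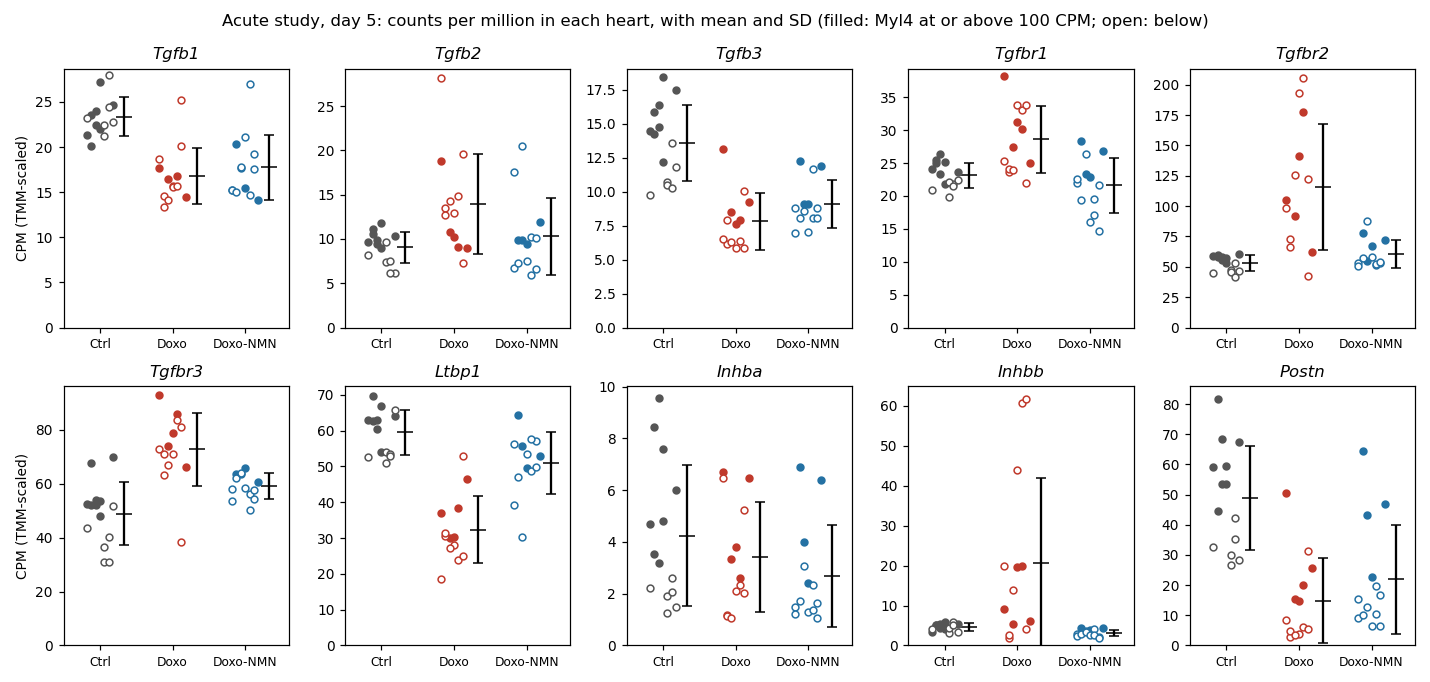
CPM of each gene (vertical axis, from 0) in each heart of the acute study, grouped as Ctrl, Doxo and Doxo-NMN, with the mean and SD beside the points. Filled points are hearts with at least 100 CPM of the atrial transcript *Myl4* and open points those below. *Tgfbr2* exceeded every Ctrl heart in 12 of 13 Doxo hearts, and *Inhbb* spread from 1.93 to 61.8 CPM in the Doxo group.

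Of the 3 TGF-β isoforms in the acute study, *Tgfb2* rose, *Tgfb3* fell and *Tgfb1* was not called. *Tgfb1*, the isoform most often tied to fibrosis, was 23.4 ± 2.19 CPM (SD, n = 14) in Ctrl hearts, with a lowest, median and highest value of 20.1, 23 and 28 CPM. In Doxo hearts it was 16.8 ± 3.15 CPM (SD, n = 13), with values of 13.4, 15.7 and 25.2 CPM, and 11 of 13 lay below every Ctrl heart. This gave a log2 fold change of −0.48 (SE 0.0864, adjusted p = 8.54e-06 by edgeR), which is under the fold limit. The highest Doxo value was that of replicate 6.

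*Tgfb2*, the isoform known for its part in heart development and in the transition of endothelial cells to mesenchyme, was 9.05 ± 1.75 CPM in Ctrl and 13.9 ± 5.60 CPM in Doxo hearts. Ctrl hearts ran from 6.18 to 11.8 CPM with a median of 9.56 CPM, and Doxo hearts from 7.28 to 28.1 CPM with a median of 12.9 CPM. The groups overlapped: 8 of 13 Doxo hearts lay above every Ctrl heart and 5 within the Ctrl range, replicate 6 being the lowest. *Tgfb2* rose by a log2 fold change of 0.62 (SE 0.176, adjusted p = 0.00211 by edgeR), or 0.68 without replicate 6. It fell under the fold limit, at 0.49 to 0.58, without Doxo replicate 1, 8 or 13 or without Ctrl replicate 13. Among hearts low in *Myl4* the log2 fold change was 1.02 (adjusted p = 0.00479 by edgeR), and among hearts high in *Myl4* it was 0.20 (adjusted p = 0.254), so the call was lost there. *Tgfb2* was 7.51 CPM in the 6 low and 10.2 CPM in the 8 high Ctrl hearts.

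*Tgfb3*, the third isoform, fell from 13.6 ± 2.80 CPM in Ctrl to 7.80 ± 2.09 CPM in Doxo hearts. Ctrl values ran from 9.73 to 18.4 CPM with a median of 13.9 CPM, Doxo values from 5.85 to 13.2 CPM with a median of 7.64 CPM, and 11 of 13 Doxo hearts were below the lowest Ctrl heart. On the log2 scale the change was −0.80 (SE 0.119, adjusted p = 3.00e-07 by edgeR), −0.83 without replicate 6, −0.71 in low and −0.72 in high *Myl4* hearts.

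Levels were also taken per kilobase of exon, with the exons of all annotated transcripts of a gene joined. This length is 5042 bases for *Tgfb1*, 5791 for *Tgfb2* and 3383 for *Tgfb3*, and it can exceed that of the transcripts expressed. The order and the shares below hold for this length only. On this scale the order in acute Ctrl hearts was *Tgfb1* at 4.64 ± 0.434, *Tgfb3* at 4.02 ± 0.83 and *Tgfb2* at 1.56 ± 0.302 CPM per kb. *Tgfb1* and *Tgfb3* lay within each other's spread, and *Tgfb2* was below *Tgfb3* in each of the 14 Ctrl hearts. In Doxo hearts the values were 3.33 ± 0.626, 2.30 ± 0.618 and 2.41 ± 0.968 CPM per kb, and *Tgfb2* exceeded *Tgfb3* in 6 of 13 hearts. The share of *Tgfb2* in the summed per kb level of the 3 isoforms had a lowest, median and highest value of 11.7%, 15.4% and 19% in Ctrl and 13.6%, 30.6% and 46.3% in Doxo hearts. In Doxo-NMN hearts these were 10.4%, 21.7% and 36.9%, and *Tgfb2* exceeded *Tgfb3* in 2 of 13 hearts.

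*Inhbb*, which encodes the βB subunit of activin B and inhibin B, had the largest fold change among the 10 genes in acute Doxo vs. Ctrl. It was 4.64 ± 0.919 CPM in Ctrl hearts, with a narrow range of 3.0 to 5.99 CPM. In Doxo replicates 1 to 13 it was 9.09, 1.93, 5.33, 44, 60.8, 4.04, 6.07, 19.8, 2.61, 14, 19.6, 19.8 and 61.8 CPM. 9 of the 13 lay above every Ctrl heart and 2 below every Ctrl heart, so the rise was carried by part of the Doxo hearts. The summed neutrophil markers were highest in Doxo replicates 13, 8, 4 and 5, at 255, 69.0, 36.2 and 28.2 CPM. All 4 of these hearts are among the 9 with more *Inhbb* than every Ctrl heart. Doxo replicate 1, with a neutrophil sum of 3.66 CPM, is also among the 9. In the Doxo-NMN group the neutrophil sum reached 26.8 CPM, and *Inhbb* was at most 4.37 CPM. Replicate 8 had 19.8 CPM of *Inhbb*, and so did replicate 12, whose neutrophil sum was 21.8 CPM. The part of neutrophil transcripts in the change was not tested. *Inhbb* rose by a log2 fold change of 2.15 (SE 0.356, adjusted p = 1.99e-06 by edgeR), by 2.24 without replicate 6, by 2.56 among low and by 1.31 among high *Myl4* hearts. *Inhba*, the βA subunit of activin A, was 4.24 ± 2.71 CPM in Ctrl and 3.42 ± 2.12 CPM in Doxo hearts, with a log2 fold change of −0.31 (95% interval −1.01 to 0.39, adjusted p = 0.433 by edgeR). It was higher in hearts with more of the atrial transcript, at 1.93 CPM in low and 5.97 CPM in high *Myl4* Ctrl hearts, and the log2 fold change was 0.47 among low and −0.37 among high hearts, called in neither.

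*Tgfbr2*, the type II receptor that binds the ligand first, was 53.1 ± 6.34 CPM in Ctrl and 116 ± 51.7 CPM in Doxo hearts. Ctrl hearts ran from 42 to 60.7 CPM with a median of 54.6 CPM, and Doxo hearts from 42.3 to 205 CPM with a median of 105 CPM. The exception was replicate 6 at 42.3 CPM, and the other 12 Doxo hearts, from 62.6 CPM upward, were above every Ctrl heart. *Tgfbr2* rose by a log2 fold change of 1.12 (SE 0.157, adjusted p = 1.02e-07 by edgeR), by 1.20 without replicate 6, by 1.29 among low and by 1.01 among high *Myl4* hearts.

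*Tgfbr1*, the type I receptor kinase, was 23.1 ± 1.92 CPM in Ctrl and 28.6 ± 5.09 CPM in Doxo hearts, a log2 fold change of 0.31 (SE 0.0864, adjusted p = 0.00201 by edgeR) that is under the fold limit. *Tgfbr3*, the co-receptor betaglycan that presents TGF-β2 in particular to the type II receptor, was 48.9 ± 11.7 CPM in Ctrl and 72.8 ± 13.5 CPM in Doxo hearts. 9 of 13 Doxo hearts were above every Ctrl heart. The log2 fold change of 0.57 (SE 0.104, adjusted p = 7.96e-06 by edgeR) was just under the limit, and it passed at 0.79 among low *Myl4* hearts and at 0.59 to 0.63 without Doxo replicate 6 or 7 or Ctrl replicate 9, 10, 11 or 14.

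*Ltbp1*, which anchors latent TGF-β in the matrix, fell from 59.6 ± 6.31 CPM in Ctrl to 32.3 ± 9.40 CPM in Doxo hearts. Ctrl hearts ran from 51 to 69.8 CPM with a median of 61.7 CPM and Doxo hearts from 18.6 to 53 CPM with a median of 30.3 CPM. 12 of 13 Doxo hearts were below every Ctrl heart, and replicate 6 again lay among the Ctrl hearts. The log2 fold change was −0.88 (SE 0.11, adjusted p = 1.24e-08 by edgeR), the smallest adjusted p of the 10 genes. It was −0.96 without replicate 6, −0.90 among low and −0.78 among high *Myl4* hearts.

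*Postn* fell from 48.8 ± 17.2 CPM in Ctrl to 14.8 ± 14.1 CPM in Doxo hearts. Ctrl hearts ran from 26.6 to 81.8 CPM with a median of 48.9 CPM, Doxo hearts from 2.77 to 50.5 CPM with a median of 8.43 CPM, and 11 of 13 Doxo hearts were below every Ctrl heart. On the log2 scale the change was −1.71 (SE 0.39, adjusted p = 2.07e-04 by edgeR), −1.85 without replicate 6, −1.99 among low and −1.25 among high *Myl4* hearts. In Ctrl hearts *Postn* was 32.6 CPM in the low and 61.0 CPM in the high *Myl4* set. The part of the atrial and fibroblast transcripts in these changes was not tested beyond the split by *Myl4*.

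**Figure D2:**
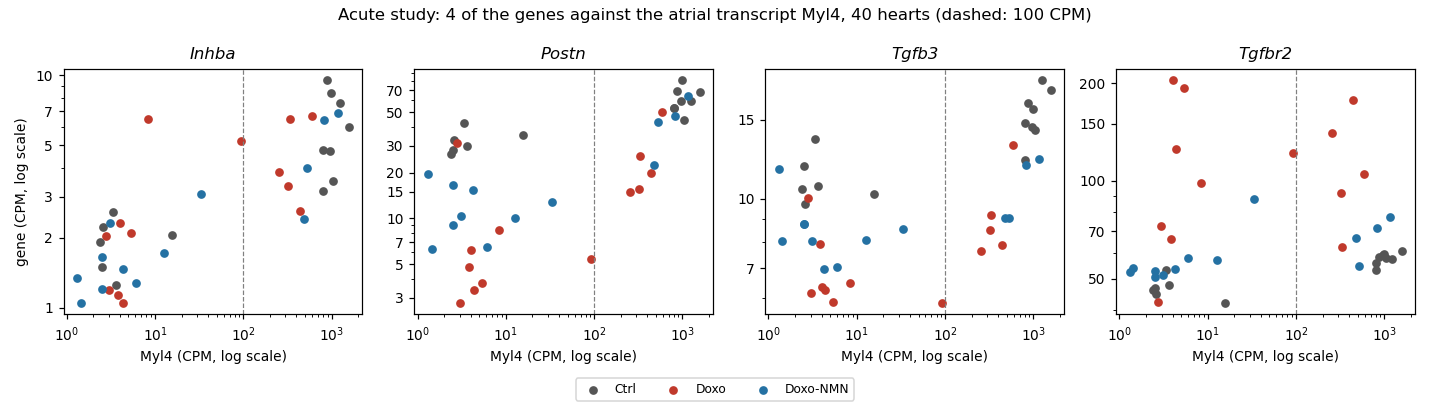
Levels of *Inhba*, *Postn*, *Tgfb3* and *Tgfbr2* (vertical axes, CPM, log scale) against the atrial transcript *Myl4* (horizontal axis, CPM, log scale) in the 40 acute hearts, coloured by group, with a dashed line at 100 CPM. The mean of *Postn* and of *Inhba* was higher right of the line in each group, and for *Tgfbr2* 12 of the 13 Doxo hearts were above every Ctrl heart.

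In acute Doxo-NMN vs. Doxo, 3 of the 10 genes were called. *Inhbb* and *Tgfbr2* fell and *Ltbp1* rose, which for each is the direction opposite to its change in Doxo vs. Ctrl. The 2 comparisons share the 13 Doxo hearts. Of all tested genes 8.17% were called higher, 8.88% lower and 53% at the adjusted p limit alone, which 6 of the 10 genes passed. The median log2 fold change was −0.33 over the 10 genes and −0.00 over all tested genes.

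*Inhbb* was 3.17 ± 0.816 CPM (SD, n = 13) in Doxo-NMN hearts, with a lowest, median and highest value of 1.96, 2.95 and 4.37 CPM. 10 of 13 Doxo hearts were above the highest Doxo-NMN heart. The log2 fold change was −2.70 (SE 0.375, adjusted p = 9.98e-07 by edgeR), −2.80 without Doxo replicate 6. *Tgfbr2* was 60.6 ± 11.7 CPM, from 50.8 to 87.8 CPM with a median of 54.7 CPM, and 9 of 13 Doxo hearts were above all of these. Its log2 fold change was −0.93 (SE 0.16, adjusted p = 1.50e-05 by edgeR), −1.0 without replicate 6. *Ltbp1* was 50.9 ± 8.72 CPM, from 30.3 to 64.5 CPM with a median of 53 CPM, and 6 of 13 Doxo-NMN hearts were above the highest Doxo heart. Its log2 fold change was 0.66 (SE 0.111, adjusted p = 1.26e-05 by edgeR), 0.73 without replicate 6. All 3 calls held within both the low and the high *Myl4* hearts.

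The other 7 genes were not called, but *Postn* passed without Doxo replicate 1, at 0.88 (adjusted p = 0.0440 by edgeR). *Tgfb2* was 10.3 ± 4.31 CPM in Doxo-NMN hearts, with a log2 fold change of −0.44 against Doxo (adjusted p = 0.0374 by edgeR), and hearts 8 and 10 of the group, at 17.6 and 20.5 CPM, stood above the rest. *Tgfbr1* was 21.6 ± 4.16 CPM (−0.40, adjusted p = 2.55e-04 by edgeR) and *Tgfbr3* 59.2 ± 4.69 CPM (−0.30, adjusted p = 0.0159 by edgeR). *Tgfb1* was 17.7 ± 3.59 CPM, with a log2 fold change of 0.08 (95% interval −0.10 to 0.26), and *Tgfb3* was 9.09 ± 1.75 CPM, with 0.22 (−0.02 to 0.46). *Inhba* at 2.68 ± 1.95 CPM and *Postn* at 21.9 ± 18.2 CPM had the widest intervals, from −1.07 to 0.36 and from −0.23 to 1.34 on the log2 scale.

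In acute Doxo-NMN vs. Ctrl, *Postn* was the 1 gene called, and it was lower. Its log2 fold change was −1.16 (SE 0.383, adjusted p = 0.0226 by edgeR), with 10 of 13 Doxo-NMN hearts below every Ctrl heart. Of all tested genes 3.31% were called higher, 3.79% lower and 26% at the adjusted p limit alone. The call on *Postn* was lost among high *Myl4* hearts, at −0.46 (adjusted p = 0.347 by edgeR). *Tgfb3* at −0.58 (adjusted p = 3.97e-04 by edgeR) lay just short of the fold limit, and *Tgfb1* at −0.40 and *Tgfbr3* at 0.27 passed the p limit alone. *Tgfbr2* (0.19, 95% interval −0.12 to 0.51) and *Inhbb* (−0.55, −1.27 to 0.17) were not called, though 7 of 13 Doxo-NMN hearts had less *Inhbb* than every Ctrl heart.

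**Figure D3:**
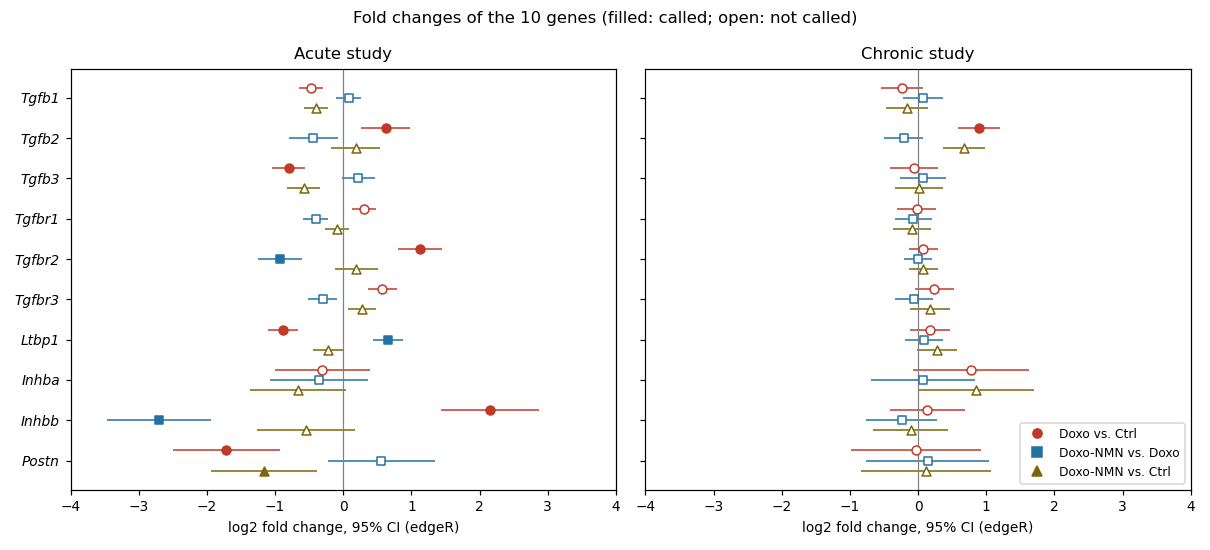
Log2 fold changes of the 10 genes with 95% intervals from edgeR, in the acute study (left) and the chronic study (right), with a colour for each of the 3 pairs of groups. Filled symbols are called and open symbols are not, with 6, 3 and 1 called on the left and 1, 0 and 0 on the right.

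In chronic Doxo vs. Ctrl, *Tgfb2* was called higher and the other 9 genes were not called. 9 of the 14960 tested genes were called in this comparison, or 0.0602%, and 0.0535% were called higher. *Tgfb2* was the 6th of all tested genes by p-value. It was 13.8, 9.98, 9.89, 9.36 and 10.4 CPM in Ctrl replicates 1 to 5, or 10.7 ± 1.79 CPM (SD, n = 5). The 6 Doxo hearts had 19.8 ± 4.13 CPM, with a lowest, median and highest value of 15.1, 18.6 and 26.3 CPM. The groups did not overlap. This gave a log2 fold change of 0.89 (SE 0.144, 95% interval 0.58 to 1.20, adjusted p = 0.0123 by edgeR). Leaving out 1 heart at a time, the log2 fold change stayed between 0.80 and 1.0, but the adjusted p rose to 0.0645, 0.0641, 0.0622 and 0.0542 without Ctrl replicate 2, 3, 4 or 5, and to 0.0533 when the 2 groups were fitted alone. The tested atrial markers did not move together: the log2 fold change was 1.58 for *Nppa*, which ventricles also express under stress, −0.66 for *Myl4* and −0.71 for *Myl7*, and 0 of the 3 were called by edgeR. *Myl4* was 1.65 to 7.19 CPM in the Ctrl and 1.43 to 2.45 CPM in the Doxo hearts. By share of the 3 isoforms per kb, *Tgfb2* had medians of 13.6% in Ctrl, 25.1% in Doxo and 21.3% in Doxo-NMN hearts.

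**Figure D4:**
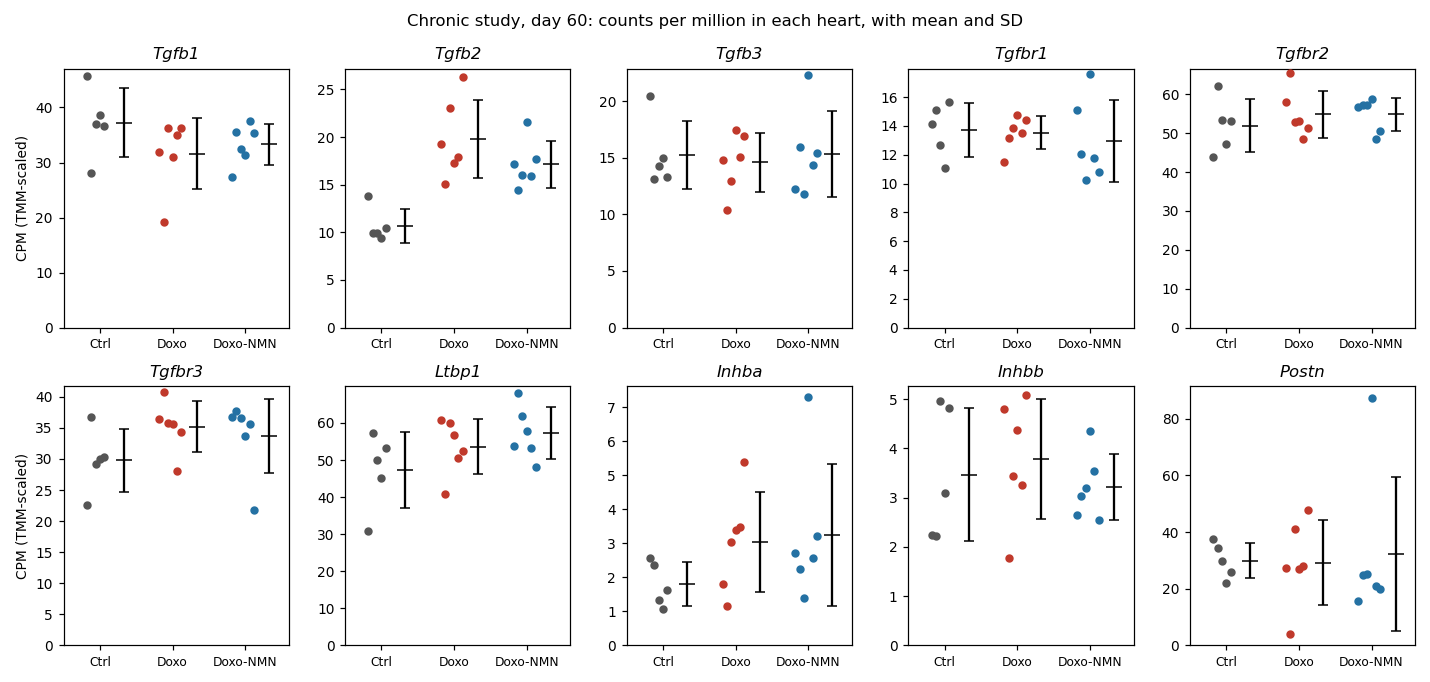
CPM of each gene (vertical axis, from 0) in each heart of the chronic study, grouped as Ctrl, Doxo and Doxo-NMN, with the mean and SD beside the points. All 6 Doxo and all 6 Doxo-NMN hearts were above every Ctrl heart for *Tgfb2*, and 1 Doxo-NMN heart stood apart for *Postn* at 87.2 CPM.

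*Tgfb2* stayed near the Doxo level in chronic Doxo-NMN hearts, at 17.1 ± 2.45 CPM with a range of 14.4 to 21.6 CPM. Against Doxo the log2 fold change was −0.21 (95% interval −0.50 to 0.07, adjusted p = 0.999 by edgeR). Against Ctrl all 6 hearts were above every Ctrl heart, with a log2 fold change of 0.68 (95% interval 0.37 to 0.99, adjusted p = 0.236 by edgeR), while DESeq2 gave an adjusted p of 0.0116 for the same difference. Among the 10 genes 0 were called in chronic Doxo-NMN vs. Doxo by edgeR and 0 by DESeq2, and 0 had an unadjusted p under 0.05. Over all tested genes 0% were called in that comparison, with 441 genes at an unadjusted p under 0.05. In chronic Doxo-NMN vs. Ctrl 0 of the 10 genes and 0.0401% of all tested genes were called by edgeR, 2 of the 10, *Tgfb2* and *Inhba*, had an unadjusted p under 0.05, and DESeq2 called 1 of them, *Tgfb2*.

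For the receptors and *Tgfb3* the chronic intervals were narrower than for *Inhba* and *Postn*. The log2 fold changes in Doxo vs. Ctrl were 0.08 for *Tgfbr2* (95% interval −0.13 to 0.29), −0.02 for *Tgfbr1* (−0.30 to 0.26), 0.24 for *Tgfbr3* (−0.05 to 0.53) and −0.06 for *Tgfb3* (−0.41 to 0.29). *Tgfbr2* was 52 ± 6.92, 54.9 ± 6.04 and 54.9 ± 4.26 CPM in chronic Ctrl, Doxo and Doxo-NMN hearts. *Tgfb1* was 37.3 ± 6.26, 31.6 ± 6.50 and 33.3 ± 3.68 CPM, with a log2 fold change of −0.24 (−0.54 to 0.07) in Doxo vs. Ctrl. *Ltbp1* was 47.3 ± 10.2, 53.6 ± 7.47 and 57.2 ± 7.04 CPM, with 0.18 (−0.12 to 0.47). *Inhbb* was 3.46 ± 1.35, 3.78 ± 1.22 and 3.22 ± 0.663 CPM. The intervals of *Inhba* (0.77, −0.08 to 1.62) and *Postn* (−0.03, −0.98 to 0.92) were the widest of the 10. *Inhba* was 1.80 ± 0.649, 3.05 ± 1.47 and 3.24 ± 2.08 CPM in the 3 groups, and 4 of 6 hearts in each treated group were above every Ctrl heart.

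Whether the effects differ between the studies was tested as an interaction in 1 edgeR fit of all 57 hearts over 15152 genes. The effect of Doxo differed for 4 of the 10 genes and for 23.6% of all tested genes. The acute minus chronic difference in log2 fold change was 2.01 for *Inhbb* (SE 0.607, adjusted p = 0.0140), 1.04 for *Tgfbr2* (SE 0.251, adjusted p = 0.00316), −1.06 for *Ltbp1* (SE 0.197, adjusted p = 4.42e-04) and −0.74 for *Tgfb3* (SE 0.213, adjusted p = 0.0112). For *Tgfb2* the difference was −0.27 (SE 0.296, adjusted p = 0.532 by edgeR), so no difference was detected for the gene called in both. *Postn*, at −1.68 (SE 0.688, adjusted p = 0.0656 by edgeR), passed the limit without acute Doxo replicate 6, at −1.83. The effect of NMN in Doxo mice differed for *Inhbb* (−2.45, SE 0.595, adjusted p = 0.0156 by edgeR) and *Tgfbr2* (−0.92, SE 0.245, adjusted p = 0.0226 by edgeR), 2 of the 10 genes, and for 6.09% of all tested genes. For *Ltbp1* it was 0.57 (adjusted p = 0.0566 by edgeR), with an adjusted p of 0.00802 (0.65) without acute Doxo replicate 6, 0.0400 by DESeq2, 0.0493 with acute counts divided by 2, 0.0556 with RLE factors and 0.0762 without the low-count filter.

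Another 100 genes of the pathway, in 6 lists by role, give the setting of these changes. In acute Doxo vs. Ctrl 88 were tested and 13 were called higher and 30 lower, with a median log2 fold change of −0.16, where 14.7% and 15.4% of all tested genes were called higher and lower. In Doxo-NMN vs. Doxo 15 were called higher and 16 lower with a median of 0.06, beside 8.17% and 8.88% of all tested genes. In Doxo-NMN vs. Ctrl 2 were higher and 18 lower with a median of −0.21, beside 3.31% and 3.79%. Without acute Doxo replicate 6 the counts were 14 and 30, 16 and 17, and 2 and 19 in these comparisons, and they held all 43, 31 and 20 genes called with it. In the chronic study 84 were tested, and 0 were called by edgeR in each comparison, with 11 at an unadjusted p under 0.05 in Doxo vs. Ctrl, 10 in Doxo-NMN vs. Doxo, and 7 in Doxo-NMN vs. Ctrl. DESeq2 called 1 of them, *Ctgf*, in chronic Doxo vs. Ctrl and 0 in the other comparisons of that study.

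Among the further ligands 1 of 12 was higher and 3 lower in acute Doxo vs. Ctrl, where the shares over all tested genes were 14.7% and 15.4%, as for the lists that follow. Values in parentheses from here on are log2 fold changes. *Bmp4*, a bone morphogenetic protein, rose from 5.50 ± 1.22 to 20.2 ± 15 CPM (1.88, adjusted p = 9.45e-08 by edgeR) and was 6.47 ± 2.13 CPM with NMN. *Gdf11*, a relative of myostatin, fell by 1.31 on the log2 scale from a level of 1.61 CPM. Among 11 further receptors 1 was higher and 2 lower. *Acvr1b*, the type I activin receptor, rose from 22.5 ± 1.51 to 37.3 ± 18.6 CPM (0.73, adjusted p = 1.74e-05 by edgeR), and *Eng*, the endothelial co-receptor endoglin, fell from 184 ± 35.4 to 107 ± 33.7 CPM (−0.78, adjusted p = 1.74e-06 by edgeR). With NMN *Acvr1b* was 24.0 ± 2.45 CPM and *Eng* 161 ± 33 CPM, and both differed from Doxo, by −0.64 and 0.59.

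Of 17 genes of latency, matrix storage and activation 3 were higher and 6 lower. *Fbn1*, the fibrillin of the microfibrils that hold latent TGF-β, fell from 81.1 ± 7.32 to 34.2 ± 13.9 CPM (−1.24, adjusted p = 7.03e-10 by edgeR), with 12 of 13 Doxo hearts below every Ctrl heart. *Ltbp1* had the same direction, and *Fbn1* was also called lower in Doxo-NMN vs. Ctrl (−0.87). *Furin*, which cleaves the TGF-β precursor, had a log2 fold change of 0.41 (adjusted p = 4.7e-07 by edgeR) and was not called, as this is under the fold limit. For *Furin* 11 of 13 Doxo hearts were above every Ctrl heart. Of the 7 Smads tested, *Smad1*, a Smad of the bone morphogenetic protein branch, rose from 11.6 ± 1.37 to 31.7 ± 19.2 CPM (1.45, adjusted p = 3.47e-08 by edgeR), and *Smad3*, a Smad of the TGF-β and activin branch, fell from 24.0 ± 3.23 to 15.7 ± 4.08 CPM (−0.61, adjusted p = 6.88e-06 by edgeR). With NMN *Smad1* was 12.2 ± 1.74 CPM and *Smad3* 16.4 ± 2.67 CPM. Of 20 inhibitors 1 was higher, the follistatin-like *Fstl3* (0.66), and 6 lower, among them the ubiquitin ligase *Smurf2* (−0.64, adjusted p = 5.14e-10 by edgeR), with 12 of 13 Doxo hearts below every Ctrl heart.

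**Figure D5:**
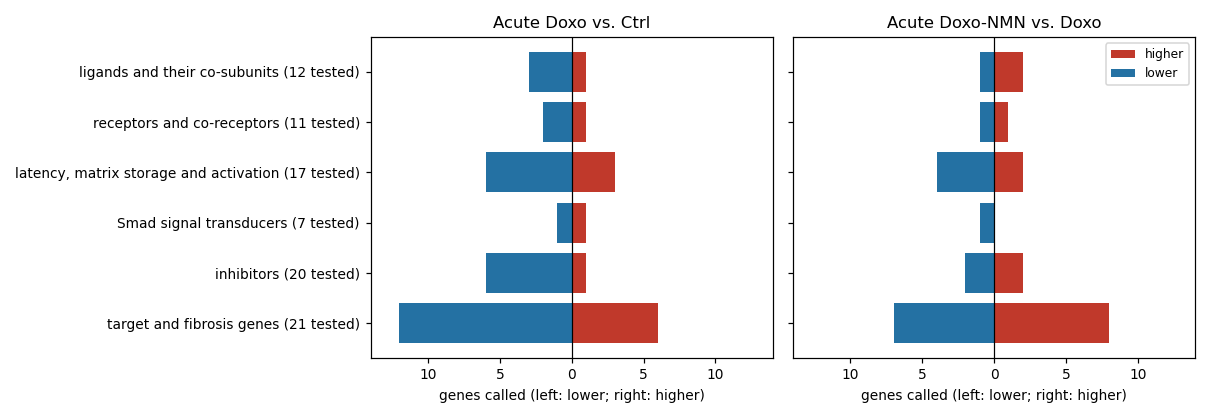
Number of genes called in each list of pathway genes in the acute study (bars to the right, higher; bars to the left, lower) for Doxo vs. Ctrl and Doxo-NMN vs. Doxo, with the number tested beside each list. In Doxo vs. Ctrl the target and fibrosis genes had 6 called higher and 12 lower of 21 tested.

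The target and fibrosis genes had calls in both directions. Of 21 tested, 6 rose and 12 fell in acute Doxo vs. Ctrl, with a median log2 fold change of −0.96, beside 14.7% higher and 15.4% lower over all tested genes. *Lox*, which cross-links collagen, rose from 8.05 ± 2.13 to 32.9 ± 14 CPM (2.03, adjusted p = 2.26e-09 by edgeR), and *Sparc*, a collagen-binding matrix protein, fell from 272 ± 27.1 to 136 ± 49.4 CPM (−1.0, adjusted p = 1.02e-08 by edgeR). Named after their values were seen, the others that rose included *Ctgf* (2.30), *Cyr61* (1.93), *Timp1* (1.23) and *Scx* (1.20), and the fallen ones included the collagens *Col3a1* (−2.80), *Col1a1* (−2.39), *Col1a2* (−1.71) and *Col5a1* (−1.70). Without Doxo replicate 6 these 4 were −3.62, −2.90, −1.90 and −1.99. *Ctgf* is a textbook early target of TGF-β, and *Col1a1* and *Col1a2* are also 2 of the 8 fibroblast markers. The sum of these markers was higher in the high than in the low *Myl4* Ctrl hearts, and the fold changes of the collagens are not given by *Myl4* set. In Doxo-NMN vs. Doxo 8 of the 21 were higher and 7 lower. Among them *Lox* (−1.70), *Cyr61* (−1.56), *Timp1* (−1.20) and *Scx* (−0.84) fell. The 4 collagens rose by 0.95 to 1.51, or by 1.14 to 2.34 (*Col3a1*) without Doxo replicate 6. *Ctgf* was not called against Doxo (−0.81, adjusted p = 0.124 by edgeR) and was called higher than in Ctrl (1.49, adjusted p = 0.0116 by edgeR). With NMN all 4 collagens were still called lower than in Ctrl, at −1.29 (*Col3a1*), −1.0 (*Col1a1*), −0.75 (*Col1a2*) and −0.64 (*Col5a1*).

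In the chronic study no listed pathway gene passed the test, and the nearest was *Ctgf*. It was 36.6 ± 5.48 CPM in the Ctrl, 168 ± 173 CPM in the Doxo and 70.2 ± 13.3 CPM in the Doxo-NMN group, and all 6 hearts of each treated group were above every Ctrl heart. The log2 fold change in Doxo vs. Ctrl was 2.20 (SE 0.416, adjusted p = 0.0566 by edgeR). Without chronic Doxo replicate 2 it was 1.43 with an adjusted p of 8.89e-04 by edgeR. *Lox* and the other names above were not called, and the genes nearest to the limit, by list and direction, were otherwise *Bmp2* (0.48), *Mstn* (−1.20), *Acvr2b* (0.34), *Acvrl1* (−0.26), *Mmp14* (0.28), *Itgb6* (−0.55), *Smad9* (0.23), *Smad1* (−0.21), *Fstl3* (0.81), *Bambi* (−0.27) and *Sparc* (−0.41), with adjusted p between 0.521 and 0.825 by edgeR.

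Over the 40 acute hearts the genes whose level tracked *Tgfbr2* most closely were *Tnfrsf1a*, *Entpd1* and *Sorbs3*, with mean absolute differences of 0.13, 0.16 and 0.16 log2 units between centred log2 CPM values. *Tgfbr2* itself deviated by 0.47 log2 units on average. *Tnfrsf1a*, a receptor of tumour necrosis factor, had log2 fold changes of 1.18 in Doxo vs. Ctrl and −1.11 in Doxo-NMN vs. Doxo. The genes nearest to *Ltbp1*, which deviated by 0.41, were *Sept8*, *Lama4* and *Ces1d*, at 0.13, 0.14 and 0.14 log2 units. *Lama4*, a laminin chain of basement membranes, had log2 fold changes of −0.89 and 0.63 in these comparisons.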

How the data were processed

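Heart RNA of 57 mice (40 acute, 17 chronic) was poly(A)-selected and sequenced by the authors on an Illumina NovaSeq, mapped to mm10 with STAR (2.7.3a per the submitters' processing notes, 2.7.0 per the methods) and counted per gene with featureCounts 2.0.0. The deposited values are the authors' raw counts, 1 table per study, whole numbers without normalization. Samples were grouped by their labels. No heart was left out of the main fits. The lowest chi-square per gene between hearts of a group was 9.91 among acute and 5.09 among chronic hearts. No library was therefore repeated within a group, and hearts of different groups were not compared in this way. Among counts of 20 or less per gene and heart, 73.6% were even in the acute and 40.3% in the chronic data (medians over hearts). Why is not known, and acute counts divided by 2 were tried.

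Genes were filtered with filterByExpr by group, scaled by TMM and tested with the quasi-likelihood F-test of edgeR 4.0.16 in R 4.3.3, with the 3 groups of a study in 1 fit and Benjamini-Hochberg adjustment over all tested genes. The methods of the study give this test and TMM but no low-count filter. Called means an adjusted p under 0.05 and, in the acute study, a fold of at least 1.5. Standard errors were taken as the size of the log2 fold change over the square root of F. The interaction was fitted on all 57 hearts and 6 groups. The scale from Ctrl to Doxo places each heart along the difference of group means over all tested genes, built without that heart. Named genes were the 10 members, for each pathway list and direction the gene of lowest adjusted p in either Doxo vs. Ctrl comparison, and the 3 genes nearest to the called member of lowest adjusted p, up and down, by centred log2 CPM with a prior count of 2. The 10 genes, lists and rules were chosen with earlier results of these data known. Each mouse is 1 replicate.

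The alternatives were RLE factors, no low-count filter, DESeq2 1.42.0, fits of only the groups compared, a replicate block, no fold limit, hearts below or at least at 100 CPM of *Myl4*, acute counts divided by 2, and leaving out each heart. The interaction was recomputed with RLE factors, no filter, DESeq2, acute counts divided by 2, and without acute Doxo replicate 6. The functions were tested on simulated data. Figures were made with matplotlib, and gene positions come from the GENCODE annotation of GRCm38 and promoters from RefSeq on GRCm38.p6. Values of 1 gene of the pathway lists are not reported here.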

Additional observations from a re-analysis of the deposited data

Results flagged for a closer look

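In 6 of 30 gene and group sets of the 2 studies with 10 hearts or fewer, 1 heart lay far from the others, where chance gives about 1 in 20. Chronic Ctrl replicate 1 was high for *Tgfb2* (13.8 CPM, next 10.4 CPM) and *Tgfb3* (20.5 CPM, next 15 CPM). Its summed atrial markers, which include *Nppa*, were the highest of its group at 205 CPM, but its *Myl4* was 2.23 CPM, against 7.19 CPM in replicate 5. Chronic Doxo replicate 2 was low for *Tgfb1* (19.1 CPM, next 31.0 CPM), and its summed markers were the lowest of the Doxo group for red blood cells (12.9 CPM, others at least 134 CPM), fibroblasts (1149 CPM, others at least 1656 CPM) and endothelial cells (687 CPM, others at least 949 CPM) and the highest for neutrophils (5.63 CPM, others at most 1.87 CPM). Chronic Doxo-NMN replicate 4 was high for *Postn* (87.2 CPM, next 25.3 CPM) and *Inhba* (7.30 CPM, next 3.21 CPM), and its summed fibroblast markers were 2793 CPM against at most 1834 CPM in the others of the group and its *Myl4* 83.8 CPM against at most 14.3 CPM. The part of these transcripts was not tested. Chronic Doxo-NMN replicate 6 was low for *Tgfbr3* (21.8 CPM, next 33.6 CPM).

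Effects that differed between the acute and the chronic study in the edgeR interaction test were those of Doxo on *Ltbp1* (acute minus chronic log2 fold change −1.06), *Tgfbr2* (1.04), *Inhbb* (2.01) and *Tgfb3* (−0.74), and those of NMN on *Inhbb* (−2.45) and *Tgfbr2* (−0.92). The 2 studies differ in regimen, time, age, supplier and sequencing site, which cannot be told apart.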

How the results depend on the processing

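Over 2230 recomputed log2 fold changes of the 10 genes, 0 called values changed sign, 12 lost their call and 33 gained one, and 47 values changed sign without a call in either fit. Without the fold limit, the genes called rose from 3 to 6 in acute Doxo-NMN vs. Doxo and from 1 to 4 in Doxo-NMN vs. Ctrl, where pathway genes rose from 20 to 31. Without the low-count filter 2 members were called in acute Doxo-NMN vs. Ctrl and 1 pathway gene, *Ctgf*, in chronic Doxo vs. Ctrl. In acute Doxo-NMN vs. Ctrl, low *Myl4* hearts gave 11 pathway genes, and high *Myl4* hearts gave 6 pathway genes and 0 members. DESeq2 called 1 pathway gene in chronic Doxo vs. Ctrl and 1 member in chronic Doxo-NMN vs. Ctrl. With only the 2 groups compared, chronic Doxo vs. Ctrl gave 0 members, and chronic Doxo-NMN vs. Ctrl gave 1 pathway gene, *Ctgf*. The causes were not tested.

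Leaving out 1 heart at a time, the members called ranged from 1 to 2 in acute Doxo-NMN vs. Ctrl, where *Tgfb3* was added without any of 9 hearts, and from 0 to 1 in chronic Doxo vs. Ctrl, where *Tgfb2* was lost without Ctrl replicate 2, 3, 4 or 5. Pathway genes called in chronic Doxo vs. Ctrl ranged from 0 to 1 (*Ctgf*). The acute call on *Tgfb2* was lost without Doxo replicate 1, 8 or 13 or Ctrl replicate 13, at log2 fold changes of 0.49 to 0.58. *Tgfbr3* was added in that comparison without any of 6 hearts (0.59 to 0.63), and *Postn* in acute Doxo-NMN vs. Doxo without Doxo replicate 1 (0.88).

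Replicate numbers did not pair the hearts: correlations of same-numbered hearts ran from −0.62 to 0.58 in acute and from −0.26 to 0.41 in chronic pairs, and 4 of 39 and 3 of 17 hearts were closest to their own number. With the replicate number as a block, members called in Doxo vs. Ctrl were 6 in the acute (*Tgfb2* out at 0.56, *Tgfbr3* in at 0.63) and 1 in the chronic study.

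The chronic study had 5 or 6 hearts a group and fewer deposited counts per heart than the acute study. Its SEs of the log2 fold change in Doxo vs. Ctrl were 0.0978 for *Tgfbr2*, 0.396 for *Inhba* and 0.443 for *Postn*. It therefore resolves smaller changes of *Tgfbr2* than of *Inhba* or *Postn*. For *Tgfbr2* the acute SE was 0.157.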
